A study of Homo sapiens with 6 samples.

Results

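The SOX, KLF, SP and FOX factors are transcription factors that bind DNA through a domain shared within each family. SOX proteins bind and bend DNA with an HMG box, KLF and SP proteins bind GC-rich and CACCC boxes with zinc fingers, and FOX proteins bind with a forkhead (winged helix) domain. Members of all 4 families take part in setting cell fate in the liver and other organs, and many act as repressors or activators depending on the partners they recruit. All genes of the deposited expression table named SOX, KLF or SP followed by a number, or FOX followed by a letter from B to S and a number, were taken as members. FOXA genes were left out. This gave 78 gene names (13 SOX, 18 KLF, 9 SP and 38 FOX) of 16510 names in the table, or of 17381 entries, since some names have entries on several loci.

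RNA sequencing was done on Hep3B SR cells, the human hepatocarcinoma line Hep3B with acquired resistance to the kinase inhibitor sorafenib. There were 3 control libraries from wildtype cells and 3 libraries from cells labelled as knockout of STIM1, which senses calcium in the endoplasmic reticulum, and the labels list no treatment for either group. Resistance is shared by both groups, and the labels do not say how the knockout was made or whether the 3 libraries of a group came from separate cultures or clones, so every p-value measures the spread between these libraries, which may be technical. The genotype field reads STIM1, STIM2 and STIM3 KO over the 3 knockout samples, whereas the titles and the design text name STIM1 alone. Reads per library, recovered from the digits of the deposited group means, totalled 13707394 to 16223940 in the control and 11925842 to 14951050 in the libraries labelled knockout. Recovered libraries carry no sample number and are lettered from A to C in the order of their size factors, highest first.

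The transcript of STIM1 itself rose. Its normalized counts were 1047, 972 and 836 in the control libraries (A to C) against 1454, 1439 and 1422 in those labelled knockout. The groups did not overlap, and limma gave a log2 difference of 0.60 (SE 0.06) upward at an adjusted p of 8.84e-07. Reads per gene do not show whether the protein was lost, so the knockout label itself was not tested. All directions below are therefore those of libraries labelled STIM1 knockout against control. Markers of the labelled cell type were mostly absent: of 10 hepatocyte and hepatoma markers 7 were listed, ALB and AFP were at 0 in the control and averaged 0.396 in the libraries labelled knockout, and HNF4A accounted for nearly all of the summed level of 216 to 261 in the control and 776 to 893 in the libraries labelled knockout. Of the 7 listed hepatocyte and hepatoma markers, HNF4A rose from 219 to 817, SERPINA1 fell from 7.12 to 0 and 5 were not called. Summed fibroblast and stellate markers ranged from 2838 to 2877 and from 220 to 285, and THY1 alone went from 2285 to 0.953. Summed endothelial markers ranged from 202 to 248 and from 252 to 285, and blood markers from 69.4 to 161 and from 31.3 to 51.5. Of 8 blood markers 2 fell and 6 were not called. HBB, not called, had 2.64, 0 and 65.3 in control libraries A to C. Summed neuronal markers ranged from 98.4 to 136 and from 310.3 to 320.4. Of the 4 listed, SNAP25 rose from 103 to 311, SYT1 fell from 6.17 to 0.396 and 2 were not called. The part of these shifts in the results below was not tested, and in bulk RNA fewer cells of a kind and less RNA per cell cannot be told apart.

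Promoter sequences are shown first for 5 members on which the results turn: the 3 FOX genes that share a short stretch of chromosome 6 and rose together, and KLF16 and SOX4, the well expressed members with the deepest falls. Each is the RefSeq window of GRCh38.p14 from 250 bases before to 50 bases after the gene start, printed 5′ to 3′ on the gene's strand, with capitals on every match to the GC box GGGCGG or its reverse complement CCGCCC, the sequence that SP and KLF proteins are known to bind. FOXQ1 lies at chr6:1311848-1312147 (+), FOXF2 at chr6:1389326-1389625 (+), FOXC1 at chr6:1609665-1609964 (+), KLF16 at chr19:1863530-1863829 (−) and SOX4 at chr6:21593501-21593800 (+).
FOXQ1: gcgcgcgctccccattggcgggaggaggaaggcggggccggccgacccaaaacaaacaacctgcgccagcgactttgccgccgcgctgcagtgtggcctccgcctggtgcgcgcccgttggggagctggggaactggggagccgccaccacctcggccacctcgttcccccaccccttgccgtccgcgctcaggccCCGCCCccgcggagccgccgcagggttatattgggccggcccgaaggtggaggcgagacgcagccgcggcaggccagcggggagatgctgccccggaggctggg
FOXF2: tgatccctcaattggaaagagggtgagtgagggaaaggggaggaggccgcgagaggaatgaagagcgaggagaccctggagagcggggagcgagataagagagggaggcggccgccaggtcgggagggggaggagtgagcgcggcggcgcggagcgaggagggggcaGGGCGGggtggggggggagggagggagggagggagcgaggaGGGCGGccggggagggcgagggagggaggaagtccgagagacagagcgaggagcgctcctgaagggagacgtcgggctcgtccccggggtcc
FOXC1: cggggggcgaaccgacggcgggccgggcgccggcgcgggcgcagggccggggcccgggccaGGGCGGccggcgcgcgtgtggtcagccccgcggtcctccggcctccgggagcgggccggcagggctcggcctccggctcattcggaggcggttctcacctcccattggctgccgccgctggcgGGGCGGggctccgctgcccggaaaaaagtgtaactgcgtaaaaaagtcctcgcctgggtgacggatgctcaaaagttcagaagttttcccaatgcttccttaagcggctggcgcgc
KLF16: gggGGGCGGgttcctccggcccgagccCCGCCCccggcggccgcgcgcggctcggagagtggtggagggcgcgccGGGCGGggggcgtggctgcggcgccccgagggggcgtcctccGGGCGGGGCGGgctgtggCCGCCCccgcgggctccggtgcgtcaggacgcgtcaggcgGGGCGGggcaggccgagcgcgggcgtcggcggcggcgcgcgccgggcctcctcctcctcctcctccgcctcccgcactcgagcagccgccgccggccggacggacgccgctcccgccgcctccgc
SOX4: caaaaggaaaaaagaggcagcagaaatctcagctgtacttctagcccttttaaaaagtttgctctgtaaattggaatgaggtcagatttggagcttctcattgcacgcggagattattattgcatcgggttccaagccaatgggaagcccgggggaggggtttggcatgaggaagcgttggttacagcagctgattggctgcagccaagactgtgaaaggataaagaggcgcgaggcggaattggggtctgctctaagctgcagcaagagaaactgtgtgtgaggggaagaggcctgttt

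KLF16 held 7 GC box matches in this window, of which a pair overlap by a base, FOXF2 and FOXC1 held 2 each, FOXQ1 held 1 and SOX4 held 0. The RefSeq table gave a promoter for 58 of the 78 members, and 42 of these (72.4%) held at least 1 GC box on either strand. The share was 64.6% among 13003 promoters of genes listed in the expression table and 45.0% among all 35116 promoters, and the median GC content was 65.0% in the members and 64.3% in listed genes. For members and listed genes 1 window per gene was kept, the first given, whereas the 35116 promoters were counted without that limit. Kept windows of some members, KLF12 and KLF8 among them, lie away from the gene start in the expression table. By outcome, 15 of 17 promoters of members that rose, 10 of 13 of those that fell and 17 of 28 of the others held a GC box. The shorter CACCC box (CACCC or GGGTG) was found in 55.2% of member promoters and 64.0% of those of listed genes. The FOX core TGTTTAC (or GTAAACA) occurred in 3.45% and 2.38%, the SOX core AACAAT (or ATTGTT) in 8.62% and 5.84%. These matches describe the letters of the window and are not evidence of binding.

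Across the families the number of members that changed was close to that of genes in general, and each family held members that rose and members that fell. A member was called changed where the authors' deposited table gave an adjusted p under 0.05 (for SOX7, KLF13 and FOXO6, which have entries on several loci, in limma on the summed reads), and "rose" and "fell" refer to such calls. Of the 78 members 23 rose, 19 fell and 36 were not called. The called share of 53.8% stood beside 54.5% of all table entries, with 25.7% of entries higher and 28.8% lower. Of the FOX genes 14 rose and 6 fell, of the KLF genes 4 rose and 6 fell, of the SP genes 3 rose and 3 fell, and of the SOX genes 2 rose and 4 fell. Changes of at least 2-fold were called upward in 12 members (15.4%, beside 6.21% of all entries) and downward in 6 (7.69%, beside 10.9%), and 7 of the 12 were FOX genes. The differences between these shares were not tested.

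A mean normalized count of at least 100 was reached by 45 members, 13 lay between 10 and 100, 8 between 1 and 10, and 12 were under 1. Among the 45, the called share was 71.1%, beside 75.3% of all entries at that level, with 16 risen and 16 fallen. The 66 members with a mean of at least 1 had a median log2 change of 0.09 in limma, beside −0.04 over all 14770 names fitted. This median leaves out the 12 lowest members, and it was 0.026 without control library B. Limma called 25 members higher and 20 lower (all names: 69.9% called, 32.9% higher and 36.9% lower), which included all 42 calls above and added KLF17, FOXD2 and FOXO4. The groups did not overlap in 46 of these 66 members, beside 72.4% of all names with a mean of at least 1.

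**Figure D1:**
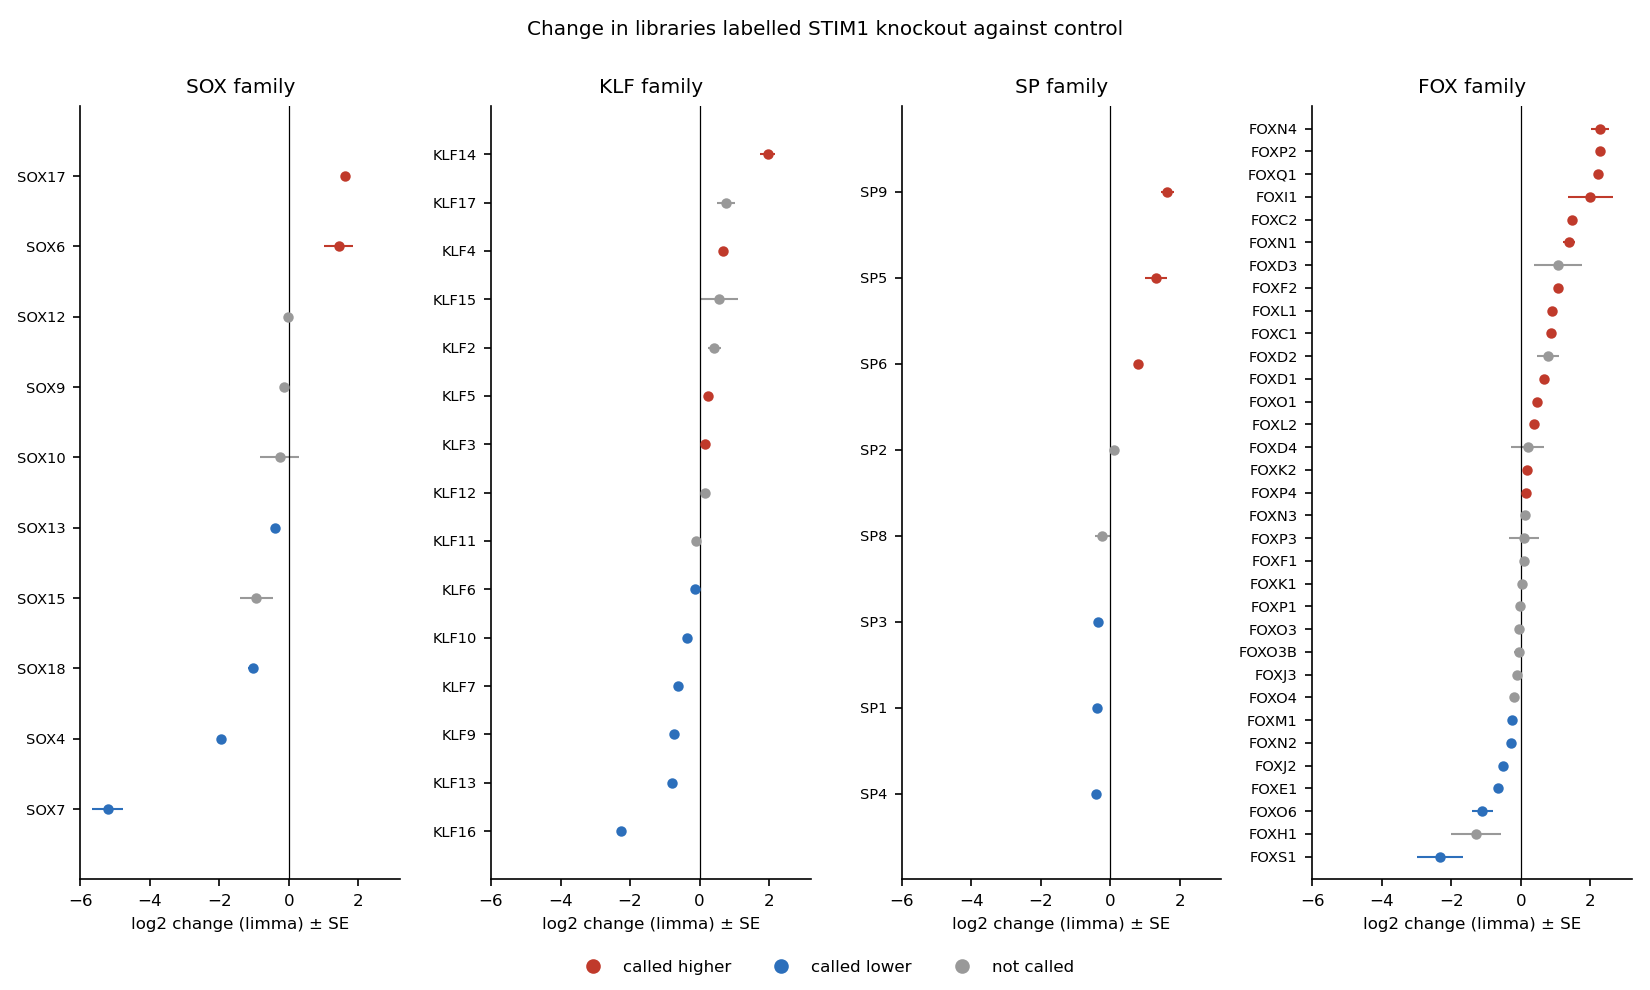
Log2 change by limma in libraries labelled STIM1 knockout against control (x axis, with SE as bars) for the 66 members with a mean of at least 1, a panel for each family. Red marks the 23 members that rose and blue the 19 that fell by the call rule in the text, and grey the others. SOX7 lies farthest to the left at −5.21.

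Among the SOX genes, the SOXF group, whose members act in endoderm and blood vessel development, changed in all 3 members and in both directions. Over all entries the called share was 54.5%. SOX7 had 76.6, 59.8 and 80.9 normalized counts in the control libraries and 2.86, 0.977 and 0 in the libraries labelled knockout. It was nearly lost, with 227 reads in the control and 4 in the libraries labelled knockout (log2 change −5.21, SE 0.44, limma adjusted p = 6.47e-08). Its reads are divided between an entry on chromosome 8 and an alternate locus, both of which fell in the authors' deposited table (log2 changes of −5.18 and −6.86), so the sum is used and remains uncertain. SOX17, a factor of definitive endoderm, had 67.8, 64.6 and 77.8 in the control and 204, 230 and 218 in the libraries labelled knockout. Every library labelled knockout was above every control library, and SOX17 rose by a log2 change of 1.62 (SE 0.13). SOX18, a factor of lymphatic and blood vessels, had 167, 147 and 161 in the control and 84.8, 79.1 and 65.4 in the libraries labelled knockout. SOX18 fell without overlap by a log2 change of −1.05 (SE 0.14). Of 8 endothelial markers, PECAM1 fell from 123 to 3.01, ERG rose from 79.3 to 246, and 6 were not called. In the control and the libraries labelled knockout these 6 averaged 9.18 and 12.3 for CDH5, 5.60 and 4.91 for VWF, 3.95 and 0.977 for TIE1, 2.49 and 0.326 for TEK, 0.639 and 0.318 for KDR, and 0.321 and 0.318 for EMCN. Whether other cells took part in the SOXF values was not tested.

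SOX4, a SOXC factor of progenitor and tumour cells, had 714, 691 and 664 normalized counts in the control and 170, 169 and 193 in the libraries labelled knockout. Libraries of each group lay close together and far from the other group. SOX4 fell from 690 ± 25.5 to 177 ± 13.5 (SD, n = 3), or by −1.96 on the log2 scale (SE 0.08, authors' adjusted p = 1.84e-88). SOX12, the other SOXC member listed, had 799.9, 791 and 768 in the control and 771, 774 and 761 in the libraries labelled knockout. Its groups overlapped, and it was not called (log2 change −0.03, SE 0.05). SOX13, a SOXD factor that lacks an activation domain of its own, had 1403, 1443 and 1497 in the control and 1096, 1106 and 1094 in the libraries labelled knockout. SOX13 fell by a log2 change of −0.40 (SE 0.04), again without overlap. SOX6, of the same group, was low, with 5.29, 4.82 and 17.6 in the control and 24.8, 23.4 and 20.2 in the libraries labelled knockout. Control library C was near the other group, and although SOX6 rose (log2 change 1.43, SE 0.42, authors' adjusted p = 0.0109), limma no longer called it without control library B (adjusted p = 0.0519; over all its alternatives the log2 change stayed positive). SOX9, a factor of bile duct and cartilage cells, had 241, 227 and 201 in the control and 223, 185 and 197 in the libraries labelled knockout. Its groups overlapped as well, with no call (log2 change −0.15, SE 0.11). SOX2 was at or near 0, with 3 reads in the control and 0 in the libraries labelled knockout, and SOX5, SOX10 and SOX30 had at most 6 reads in a group. SOX15 averaged 13.8 and 7.56 and was not called.

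Genes named beside SOX9 and SOX17 in textbooks are counted next, against the 54.5% of all entries that were called (75.3% of entries with a mean of at least 100); the lists were not tested against other genes. Of 12 ductal and progenitor genes linked to SOX9, 5 rose, 2 fell and 5 were not called (median log2 change −0.27 over the 11 with a mean of at least 1). This median is the value of SPP1, which averaged 19.1 and 17.6, had an SE of 0.81 and was not called, so its sign is uncertain. EPCAM, an adhesion protein of progenitor and duct cells, rose from 119 ± 22.0 to 544 ± 12.1, and KRT7, a duct keratin, fell from 3961 ± 77.1 to 1791 ± 93.1. Of 8 listed endoderm genes linked to SOX17, 3 rose, 4 fell and 1 was not called (median −0.68 over 7). HNF4A, a hepatocyte nuclear receptor, rose from 219 ± 21.9 to 817 ± 61.2, and CXCR4, a chemokine receptor of definitive endoderm, fell from 764 ± 15.2 to 244 ± 3.51. Of 8 listed pluripotency partners of SOX2 and KLF4, 1 rose, 1 fell and 6 were not called, and SALL4, an oncofetal zinc finger factor, fell from 890 ± 57.1 to 238 ± 12.5.

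The KLF genes are taken by the cofactor they bind. Of the 6 that bind the corepressor SIN3A, 4 fell, 1 rose and 1 was not called. The called share was 83.3%, beside 54.5% of all entries and 75.3% of those with a mean of at least 100. The difference was not tested. KLF16, a SIN3A-binding repressor, had 722, 737 and 820 normalized counts in the control and 158, 153 and 165 in the libraries labelled knockout. Its groups were separated by a wide gap, and KLF16 fell from 760 ± 52.8 to 159 ± 5.99 (SD, n = 3), or by −2.25 on the log2 scale (SE 0.08, authors' adjusted p = 7.71e-99). KLF9, a factor induced by glucocorticoid and thyroid hormones, had 928, 922 and 949 in the control and 567, 526 and 599 in the libraries labelled knockout. KLF9 fell by a log2 change of −0.73 (SE 0.06). KLF13 had 279, 290 and 339 in the control and 154, 180 and 188 in the libraries labelled knockout, summed over its loci. KLF13 fell by −0.80 on the log2 scale (SE 0.11), and nearly all of its reads were on chromosome 15, where the authors' table gave −0.85. KLF10, an early gene of the TGF-beta response, had 1111, 1133 and 1075 in the control and 837, 855 and 906 in the libraries labelled knockout. KLF10 fell by −0.35 on the log2 scale (SE 0.05), while KLF11, its closest relative, was not called. KLF11 had 779, 759 and 770.4 in the control and 741, 723 and 668 in the libraries labelled knockout, which did not overlap (log2 change −0.12, SE 0.05; limma called it without library A labelled knockout, adjusted p = 0.0473).

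KLF14, the exception in the SIN3A group, had 16.7, 20.3 and 21.8 normalized counts in the control and 76.2, 73.3 and 88.0 in the libraries labelled knockout. All 3 libraries labelled knockout were above all controls, and KLF14 rose by a log2 change of 1.96 (SE 0.21, authors' adjusted p = 6.92e-12). KLF14 is an imprinted gene expressed from the maternal allele. MEST, an imprinted gene expressed from the paternal allele and lying within 500 kb by gene start, rose as well, from 465 to 1354 in the authors' deposited table (log2 change 1.54); it was singled out after its values were seen.

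KLF4, a pluripotency and epithelial differentiation factor, had 1301, 1255 and 1272 normalized counts in the control and 2074, 2001 and 2018 in the libraries labelled knockout. Within each group the spread was small, and KLF4 rose by a log2 change of 0.67 (SE 0.04, authors' adjusted p = 2.50e-39). KLF5, a growth-promoting factor of epithelia, had 2262, 2149 and 2248 in the control and 2733, 2596 and 2585 in the libraries labelled knockout. KLF5 rose by less, with a log2 change of 0.25 (SE 0.04), also without overlap. KLF7, another activator, had 476, 429 and 481 in the control and 309, 299 and 298 in the libraries labelled knockout. KLF7 fell by −0.61 on the log2 scale (SE 0.07). KLF6, an injury-response gene of stellate cells and a tumour suppressor, had 1209, 1190 and 1199 in the control and 1070, 1158 and 1048 in the libraries labelled knockout. KLF6 fell by −0.14 on the log2 scale (SE 0.05, authors' adjusted p = 0.0453), a call that limma lost without control library A, library A labelled knockout or library C labelled knockout (adjusted p from 0.0541 to 0.0798). KLF2, which shares vascular functions with KLF4, averaged 40.9 and 55.6 and was not called. Of 7 genes of the ERK5-MEF2 pathway that acts upstream of KLF2 and KLF4, 3 rose, 1 fell and 3 were not called. All but MEF2C had a mean of at least 100, a level at which 75.3% of all entries were called. Over entries at any level the share was 54.5%. The list was not tested against other genes. MAP3K2, a kinase at the top of the pathway, rose from 2013 ± 71.3 to 2494 ± 55.9. MAPK7, which encodes ERK5, fell from 391 ± 16.9 to 273 ± 14.9.

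KLF3, which recruits the corepressor CtBP, had 987, 1064 and 981 normalized counts in the control and 1099, 1117 and 1170 in the libraries labelled knockout. KLF3 rose by a small log2 change of 0.16 (SE 0.05, authors' adjusted p = 0.0193). KLF12, which also recruits CtBP, had 551, 606 and 562 in the control and 569, 665 and 689.6 in the libraries labelled knockout. Its groups overlapped and it was not called (log2 change 0.16, SE 0.07), although limma called it without library A labelled knockout (log2 change 0.24, adjusted p = 0.00623). KLF8 had 1 read in each group. KLF17 averaged 62.2 and 98.1; control library B was low at 31.8 beside 85.4 and 69.5, and limma alone called it (log2 change 0.76; it is named for that). KLF1, KLF15 and KLF18 averaged under 10 and were not called. All 14 listed genes of corepressors that KLF, SP and FOX proteins recruit had a mean of at least 100, a level at which 75.3% of all entries were called. Of these, 3 rose, 10 fell and 1 was not called, with a median log2 change of −0.29 beside −0.04 over all names. TLE1, a Groucho-type corepressor, fell from 581 ± 31.8 to 313 ± 6.90, and TLE5, a short Groucho relative, fell from 4468 ± 106 to 2597 ± 47.8.

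Among the SP genes, the falls and the rises lay in separate subgroups. SP1 to SP4, broad activators with glutamine-rich domains, had 3 members that fell and 1 not called. SP5 to SP9, tissue-restricted factors, had 3 that rose and 2 not called. SP1 to SP4 all had a mean of at least 100, and 75% of them were called, beside 75.3% of all entries at that level. In SP5 to SP9 the called share was 60%, beside 54.5% of all entries. The split between the subgroups was not tested. SP1, the most abundant of the family, had 5651, 5655 and 5515 normalized counts in the control and 4342, 4217 and 4339 in the libraries labelled knockout. Both groups were well apart, and SP1 fell by a log2 change of −0.38 (SE 0.03, authors' adjusted p = 8.61e-29). SP3, which competes with SP1 for GC boxes, had 1978, 2019 and 1803 in the control and 1574, 1531 and 1466 in the libraries labelled knockout, and SP3 fell by −0.34 on the log2 scale (SE 0.05). SP4, best known in neurons, had 292, 348 and 312 in the control and 256, 245 and 218 in the libraries labelled knockout, and SP4 fell by −0.40 (log2 scale, SE 0.10). SP2 had 315, 309 and 337 in the control and 331, 362 and 345 in the libraries labelled knockout. It overlapped between groups and was not called (log2 change 0.11, SE 0.08).

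SP6, a factor of tooth and skin epithelium, had 121, 137 and 131 normalized counts in the control and 229, 221 and 226 in the libraries labelled knockout. SP6 rose by a log2 change of 0.80 (SE 0.10) without overlap. SP9, a factor of limb ectoderm and interneurons, had 33.5, 28.9 and 25.9 in the control and 93.4, 98.7 and 88.0 in the libraries labelled knockout. SP9 rose by 1.64 on the log2 scale (SE 0.19). SP5, a WNT target that represses genes bound by SP1, had 13.2, 7.71 and 16.6 in the control and 30.5, 25.4 and 39.2 in the libraries labelled knockout, and SP5 rose by 1.31 on the log2 scale (SE 0.32, authors' adjusted p = 0.00294). The lowest library labelled knockout was still above the highest control. SP8 averaged 38.4 and 32.8 and was not called, and SP7, the bone factor, had 4 reads in the control and 0 in the libraries labelled knockout.

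**Figure D2:**
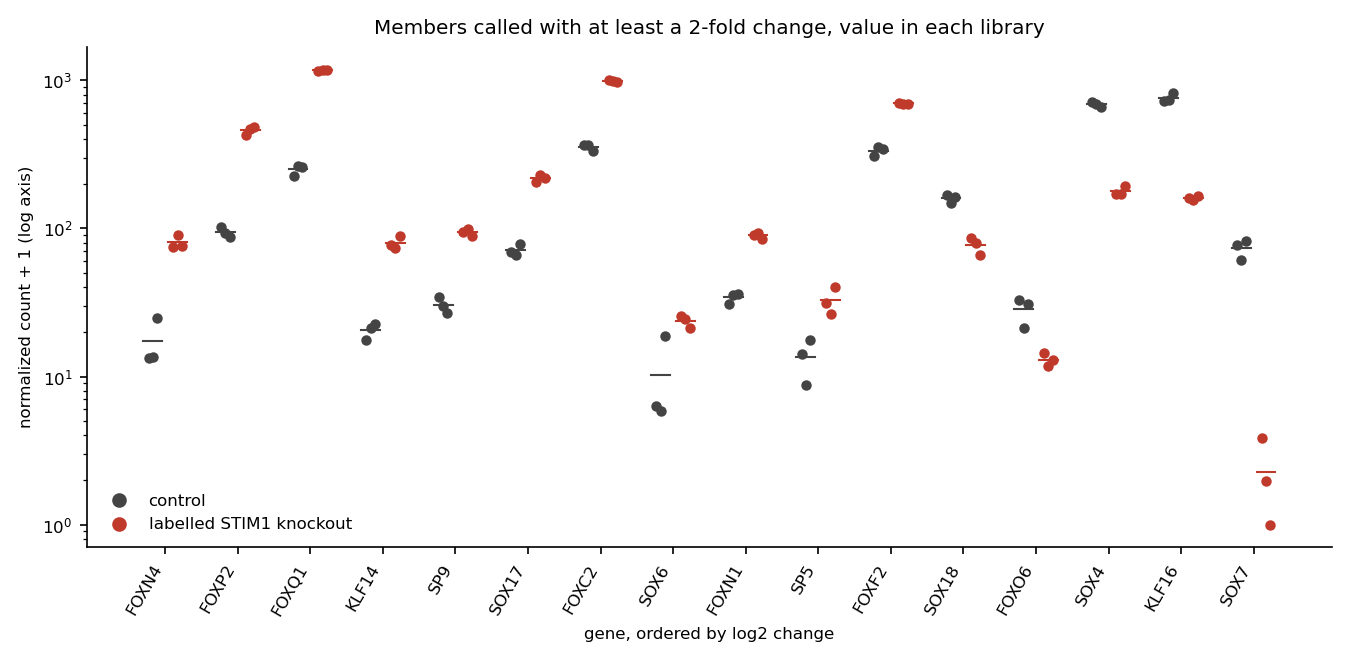
Normalized count plus 1 on a log axis in each of the 3 control libraries (grey) and 3 libraries labelled STIM1 knockout (red), with the group mean as a line, for the 16 members called with at least a 2-fold change and a mean of at least 10 in the higher group. In none of the 16 do the groups overlap; SOX6 has a control library close to the other group.

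Of the 23 members that rose 14 were forkhead genes, of which FOXQ1 had the smallest p. FOXQ1, a factor linked to epithelial-mesenchymal transition and tumour growth, had 226, 263 and 260 normalized counts in the control and 1155, 1164 and 1176 in the libraries labelled knockout. Its libraries labelled knockout lay close together, and FOXQ1 rose 4.67-fold (log2 change 2.22, SE 0.07, authors' adjusted p = 4.65e-173). FOXF2, a mesenchymal factor of the gut wall, had 307, 354 and 340 in the control and 702, 695 and 693 in the libraries labelled knockout, and FOXF2 rose by a log2 change of 1.06 (SE 0.07). FOXC1, a mesoderm and eye development factor, had 797, 909 and 781 in the control and 1509, 1434 and 1561 in the libraries labelled knockout. FOXC1 rose by 0.86 on the log2 scale (SE 0.06), without overlap. These 3 genes, whose promoters are printed above, lie within 298 kb of each other by gene start on chromosome 6 (GRCh38, FOXQ1 from 1312098 to 1314758, FOXF2 from 1389576 to 1395603 and FOXC1 from 1609915 to 1613897). The only other gene within 500 kb of FOXC1 with a mean of at least 10, the GDP-mannose dehydratase GMDS, averaged 505 and 500 and was not called.

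A similar cluster lies on chromosome 16. FOXC2, the lymphatic and mesenchymal relative of FOXC1, had 362, 365 and 333 normalized counts in the control and 1007, 981 and 970 in the libraries labelled knockout. Both groups were far apart, and FOXC2 rose by a log2 change of 1.48 (SE 0.06, authors' adjusted p = 1.22e-80). FOXL1, a factor of gut mesenchyme beside it, had 291, 275 and 290 in the control and 502, 548 and 535 in the libraries labelled knockout, and FOXL1 rose by 0.89 on the log2 scale (SE 0.07). FOXF1, the third forkhead gene of the cluster and the closest relative of FOXF2, had 281, 247 and 299 in the control and 272, 308 and 296 in the libraries labelled knockout. FOXF1 was not called, with overlapping groups and a log2 change of 0.09 (SE 0.09). MTHFSD, the other listed neighbour, fell by −0.48 on the log2 scale in the authors' deposited table.

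FOXP2, a factor of brain and lung development, had 101, 92.6 and 87.1 normalized counts in the control and 424, 464 and 485 in the libraries labelled knockout. FOXP2 rose without overlap by a log2 change of 2.28 (SE 0.10, authors' adjusted p = 4.85e-74). Its paralog FOXP1 had 566, 510.1 and 536 in the control and 534, 496 and 569.6 in the libraries labelled knockout. FOXP1 overlapped between groups and was not called (log2 change −0.01, SE 0.07). FOXP4, another paralog, had 685, 738 and 725 in the control and 781, 829 and 794 in the libraries labelled knockout and rose by 0.16 on the log2 scale (SE 0.05, authors' adjusted p = 0.0343), a call limma lost without control library A (adjusted p = 0.0512) or without library B labelled knockout (0.0578). FOXP3, the factor of regulatory T cells, averaged 4.86 and 5.28.

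FOXN4, a factor of retinal progenitors, had 12.3, 12.5 and 23.8 normalized counts in the control and 74.3, 88.9 and 74.9 in the libraries labelled knockout. FOXN4 rose by a log2 change of 2.28 (SE 0.26). FOXN1, the thymic epithelial factor, had 30.0, 34.7 and 35.3 in the control and 89.6, 91.8 and 84.4 in the libraries labelled knockout, and FOXN1 rose by 1.39 (log2 scale, SE 0.18). Both were low in the control and separated from it in every library labelled knockout. FOXN2 had 536, 524 and 437 in the control and 413, 433 and 386 in the libraries labelled knockout. FOXN2 fell by −0.28 on the log2 scale (SE 0.08, authors' adjusted p = 0.0189). Control library C lay close to the other group, and limma lost the call without control library A or B (adjusted p = 0.0595 and 0.0589). FOXN3, a checkpoint suppressor, had 1006, 934 and 865 in the control and 1005, 1028 and 1026 in the libraries labelled knockout. Control library A lay among the other group, and FOXN3 was not called (log2 change 0.13, SE 0.05), although limma called it without control library A (log2 change 0.18, adjusted p = 0.0108) and under 4 other settings.

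FOXD1, a factor of kidney stroma, had 366, 369 and 376 normalized counts in the control and 657, 498 and 629 in the libraries labelled knockout. Library B labelled knockout was the lowest of its group but above all controls, and FOXD1 rose by a log2 change of 0.67 (SE 0.09). FOXL2, an ovarian factor, had 301, 310 and 343 in the control and 431, 433 and 371 in the libraries labelled knockout and rose by 0.37 on the log2 scale (SE 0.08). FOXL2 runs on the minus strand. FOXL2NB, whose lower coordinate lies 2.99 kb from the lower coordinate of FOXL2, fell by −0.58 in the authors' deposited table. FOXE1, a thyroid factor, had 226, 178 and 182 in the control and 117, 140 and 117 in the libraries labelled knockout. FOXE1 fell by −0.64 on the log2 scale (SE 0.13). FOXI1, the ionocyte factor, had 0, 0 and 1 reads in the control libraries and 7, 7 and 1 in the libraries labelled knockout. Control library C and library C labelled knockout thus held 1 read each. Summed over libraries, 1 read against 15 gave a ratio of 16.2 with a 95% counting interval of 2.48 to 680. FOXS1, a factor of sensory neurons and pericytes, had 9, 6 and 1 reads in the control libraries and 0 in each library labelled knockout. Summed, 16 reads against 0 was at least 4.96-fold lower, taking 3 reads in the group as the floor. Both were called in the authors' table and named after their values were seen; PCR reads carry no molecular identifiers, so such intervals and floors cover counting error only. FOXD2 had 13.2, 17.4 and 14.5 in the control and 32.4, 33.2 and 16.6 in the libraries labelled knockout, overlapped between groups, was not called in the authors' table and was called by limma alone (log2 change 0.77). FOXB1, FOXE3, FOXJ1, FOXR1 and FOXR2 averaged under 1, FOXD3, FOXD4 and FOXH1 under 10, and none of the 8 was called.

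FOXM1, the forkhead activator of mitotic genes, had the highest level per length of all members in the control. Its normalized counts were 3020, 3004 and 3000 in the control and 2494, 2614 and 2521 in the libraries labelled knockout. Control libraries were nearly equal and all above the others, and FOXM1 fell by a log2 change of −0.24 (SE 0.03, authors' adjusted p = 1.38e-08). Its 5′ end overlaps RHNO1, which runs on the other strand and fell too, and since no source used here states that reads were counted by strand, reads of the overlap cannot be assigned. Of 16 mitotic genes linked to FOXM1, all with a mean of at least 100, 9 fell, 1 rose and 6 were not called, fewer calls than the 75.3% of all entries at that level, and their median log2 change was −0.35 beside −0.04 over all names. The list was not tested against other genes. CDC20, an activator of the anaphase-promoting complex, fell from 2971 ± 136 to 1345 ± 51.5 (log2 change −1.14, SE 0.04). KIF20A, a kinesin of cytokinesis, fell from 4999 ± 30.7 to 3136 ± 85.5 (log2 change −0.67, SE 0.03).

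The FOXO genes, effectors of insulin signalling that AKT keeps out of the nucleus, were divided. FOXO1 had 323, 357 and 298 normalized counts in the control and 476, 471 and 404 in the libraries labelled knockout, and FOXO1 rose by a log2 change of 0.47 (SE 0.09, authors' adjusted p = 2.81e-05). FOXO3 had 1106, 1101 and 1051 in the control and 1054, 1106 and 1013 in the libraries labelled knockout, and was not called (log2 change −0.04, SE 0.05). FOXO3B, a near copy of FOXO3, had 122, 99.3 and 107 in the control and 100.1, 100.6 and 117 in the libraries labelled knockout. Both overlapped between groups, and both are uncertain since reads can be shared. FOXO4 had 446, 419 and 473 in the control and 392, 405 and 378 in the libraries labelled knockout; its groups did not overlap, but the authors' adjusted p was 0.0894 and limma alone called it (log2 change −0.18). FOXO6 had 31.7, 20.3 and 30.1 in the control and 13.3, 10.7 and 11.9 in the libraries labelled knockout, summed over its loci, with a log2 change of −1.10 (SE 0.29). The fall of FOXO6 is uncertain, since its entry on chromosome 1 alone gave −0.57 and no call (limma adjusted p = 0.244).

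Targets and regulators of the FOXO proteins were called about as often as entries with a mean of at least 100 (75.3%). Most of them reached that level, and 54.5% of all entries were called. The lists were not tested against other genes. Of 22 listed FOXO-linked genes, 7 rose, 8 fell and 7 were not called, with a median log2 change of −0.06. TXNIP, an inhibitor of thioredoxin and glucose uptake, fell from 10984 ± 244 to 1163 ± 71.0 (log2 change −3.24, SE 0.04), and PDK4, which shuts pyruvate out of the mitochondria, rose from 715 ± 23.3 to 2487 ± 120.3 (log2 change 1.80, SE 0.05). Of 14 genes upstream of FOXO proteins, 5 rose, 6 fell and 3 were not called. PIK3R1, the regulatory subunit of PI3-kinase, fell from 246 ± 11.9 to 34.6 ± 5.77, and SGK1, a kinase that phosphorylates FOXO3, rose from 1920.1 ± 76.5 to 2789 ± 49.9.

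Of the remaining forkhead genes, FOXJ2 had 1297, 1375 and 1259.7 normalized counts in the control and 916, 896 and 943 in the libraries labelled knockout. FOXJ2 fell by a log2 change of −0.51 (SE 0.05), without overlap. SLC2A3, a glucose transporter within 500 kb of it by gene start and named after its value was seen, fell from 2946 to 47.3 in the authors' deposited table. FOXJ3 had 1320, 1336 and 1233 in the control and 1308, 1171 and 1153 in the libraries labelled knockout. Library A labelled knockout lay among the control values, and FOXJ3 was not called (log2 change −0.10, SE 0.05), although limma called it without that library (log2 change −0.16, adjusted p = 0.0163). FOXK2, a repressor of autophagy and an activator of glycolysis, had 1869, 1749 and 1789 in the control and 2085, 2022 and 1992 in the libraries labelled knockout, and FOXK2 rose by 0.17 on the log2 scale (SE 0.04). FOXK1, its paralog, had 3187, 3301 and 3280 in the control and 3438, 3410 and 3160 in the libraries labelled knockout. Its groups overlapped, with no call (log2 change 0.03, SE 0.04).

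Levels were compared between members only per length, as normalized counts per kilobase of the length in bases listed for each gene in the deposited table. The file header does not say which parts of a gene this length covers. In the control FOXM1 was highest at 806 ± 2.86, followed by SP1 at 726 ± 10.3, KLF5 at 628 ± 17.4, KLF4 at 420.0 ± 7.74 and SOX13 at 354 ± 11.5. SOX13 did not differ beyond its spread from KLF10 at 347 ± 9.15. In the libraries labelled knockout KLF5 was highest at 747 ± 23.3, followed by FOXM1 at 682 ± 16.9 and KLF4 at 669 ± 12.5. FOXM1 and KLF4 did not differ beyond their spread. Next came SP1 at 557 ± 9.23 and FOXQ1 at 438 ± 3.95. FOXQ1 moved from rank 26 to rank 5 of the 78 members, SOX4 from 20 to 41 and KLF16 from 9 to 34. Summed per family, the FOX level per kilobase went from 3448 ± 29.0 to 4395 ± 36.9, the SOX level from 870.0 ± 7.20 to 663 ± 9.69 and the SP level from 1010 ± 19.5 to 856 ± 10.1, while the KLF level was 2598 ± 29.5 and 2604 ± 21.5. Within the families FOXQ1 made up 2.72% ± 0.234 and 9.96% ± 0.172 of the FOX sum, FOXM1 23.4% ± 0.177 and 15.5% ± 0.449, SOX4 16.3% ± 0.610 and 5.49% ± 0.501 of the SOX sum, and SOX17 3.43% ± 0.319 and 14.0% ± 0.833. In the KLF family the share of KLF16 was 10.1% ± 0.634 and 2.10% ± 0.0736 and that of KLF4 16.2% ± 0.236 and 25.7% ± 0.287 (SD, n = 3 throughout). No test was run on these sums and shares.

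**Figure D3:**
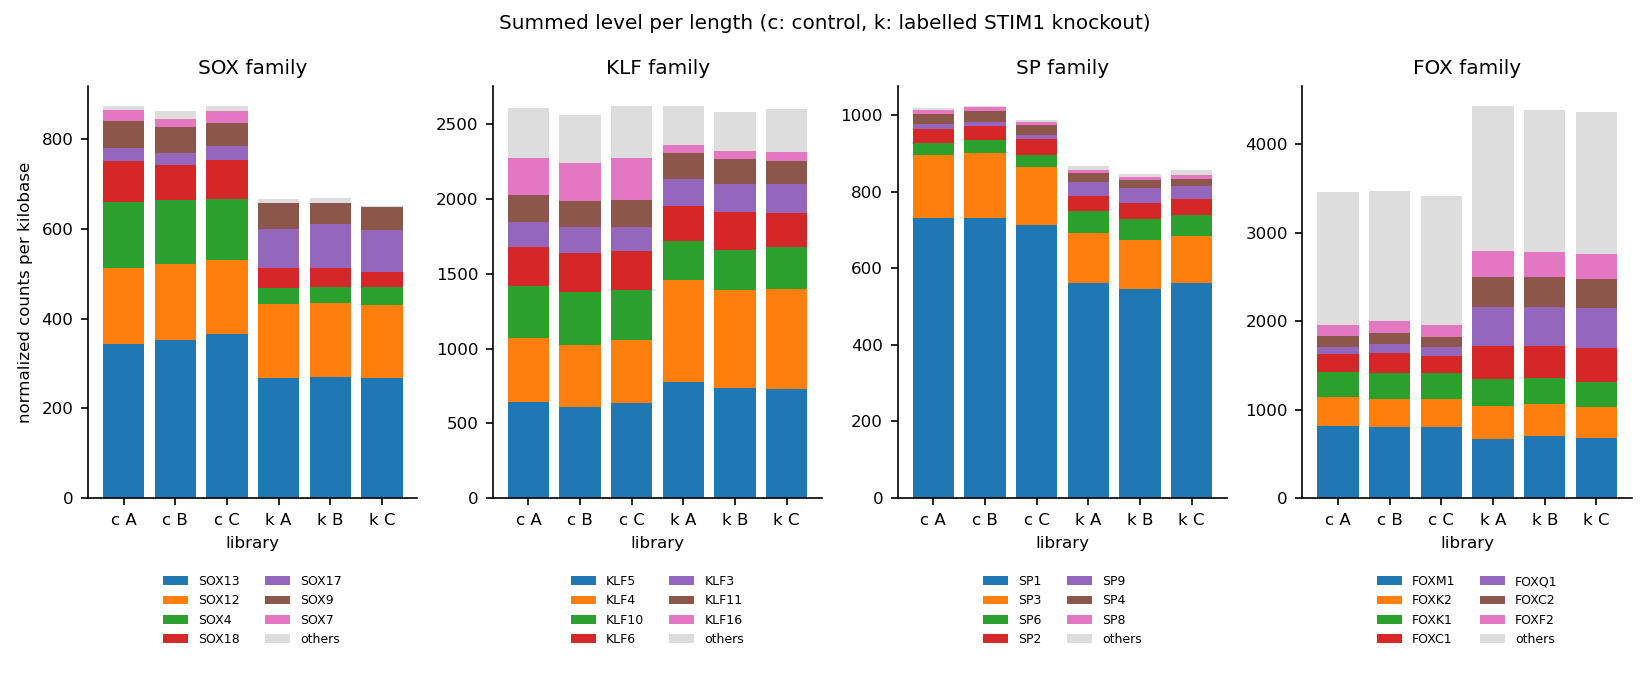
Normalized counts per kilobase summed over each family (y axis, stacked, from 0) in 3 control libraries (c A to c C) and 3 libraries labelled STIM1 knockout (k A to k C). Colours mark the 7 members with the highest levels in each family and pale grey the others. The FOX stacks are taller in the libraries labelled knockout and the SOX and SP stacks shorter, while the KLF stacks differ in make-up more than in height.

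Neighbouring genes were examined for members whose change could be set beside that of their surroundings; the members described here were chosen after their values were seen. KLF16 lies on chromosome 19 (GRCh38, 1852399 to 1863579) among 33 genes with a mean of at least 10 within 500 kb, of which 30 fell, 2 rose and 1 was not called, with a median log2 change of −1.38 in the authors' deposited table. KLF16 itself stood at −2.26 there, and only GAMT and PCSK4 fell further, with −6.46 and −2.48. Over all entries, at any level, 54.5% were called, 28.8% lower and 25.7% higher. Neighbour counts were not tested against these shares.

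KLF3, on chromosome 4 from 38664079 to 38701517, rose slightly while all 5 such neighbours fell, with a median of −3.87. They include the toll-like receptor genes TLR1 and TLR6, with −3.99 and −3.87. FOXM1 had 8 neighbours, of which 6 fell and 1 rose (median −0.65), and FOXN4 had 10, of which 7 rose and 1 fell (median 0.38). SP9 rose while 5 of its 7 neighbours fell, SP3 among them. These counts too stand beside 28.8% of all entries lower and 25.7% higher and were not tested. SOX4, SOX6 and FOXP2 had no listed neighbour of that level in the window, so their changes have nothing to be set beside.

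**Figure D4:**
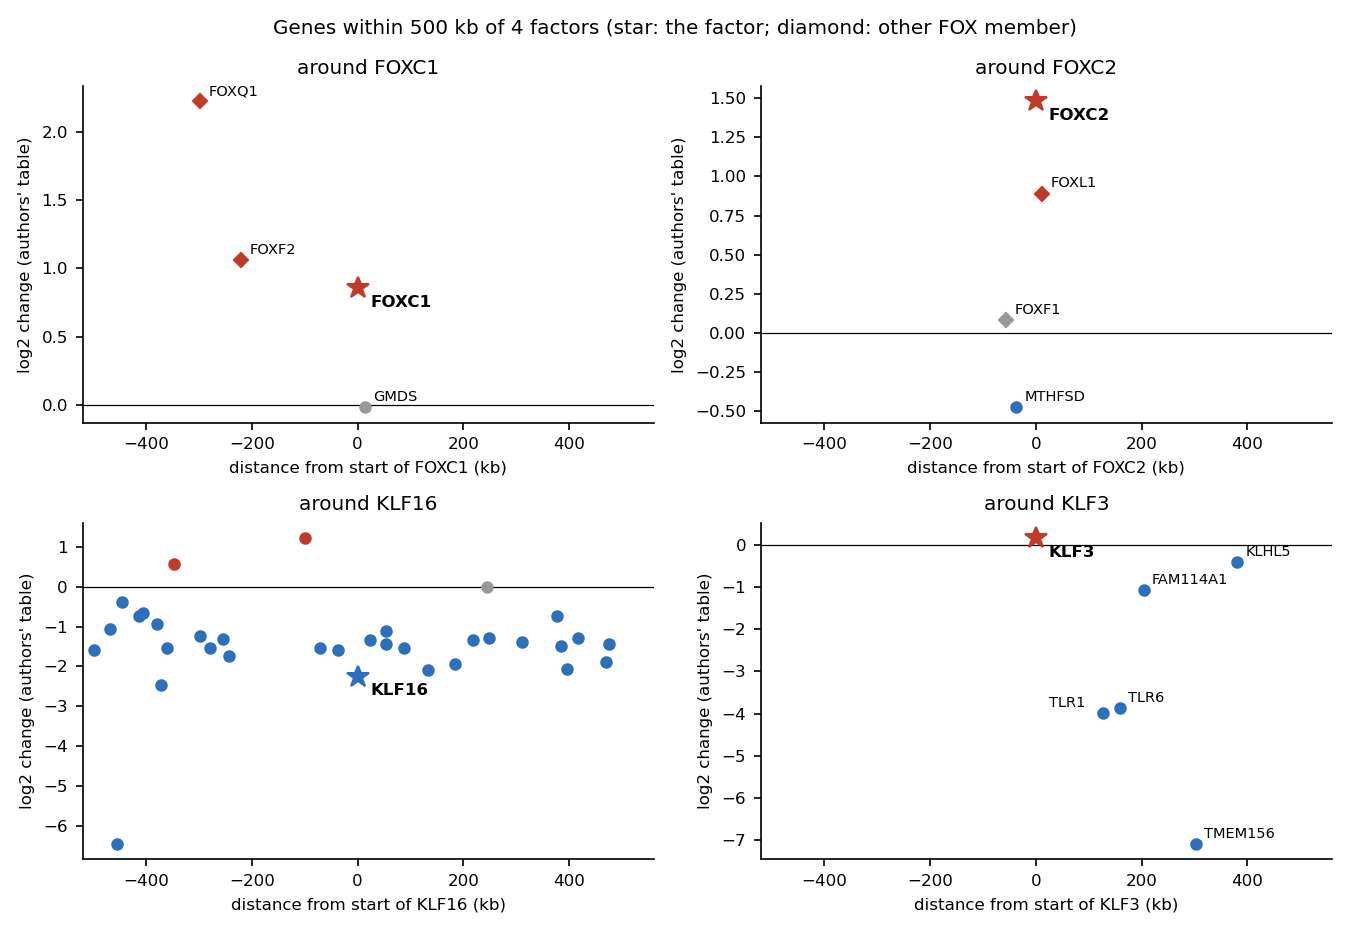
Log2 change in the authors' deposited table (y axis) of genes averaging at least 10, against their distance in kb (difference of the lower coordinates, x axis) from FOXC1, FOXC2, KLF16 and KLF3. A star marks the named factor and diamonds other forkhead members; red rose, blue fell and grey was not called. FOXQ1, FOXF2 and FOXC1 are all above 0 beside GMDS at −0.01, KLF16 sits among falling genes, and KLF3 stands above its 5 falling neighbours.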

How the data were processed

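Messenger RNA of 6 libraries (3 control, 3 labelled STIM1 knockout, grouped by sample title) was sequenced by the submitters from total RNA with a SMARTER mRNA-Seq kit, per the labels' protocols. Per the file headers, the deposited signal of a gene is the mean over a group of read counts divided by size factors. The authors also deposited a ratio (fold) between the group means, its log2 value, a p-value and an adjusted p-value. Aligner and counting tool are not given in the sources used here; GRCm38 and mm10, both mouse builds, stand in the submitters' processing notes, whereas the chromosome accessions in the table belong to human GRCh38, the build of all coordinates here.

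The reads of each library were worked out from the 15 significant digits of the group means (Python 3.11.15, numpy 2.4.6, numba 0.67.0): the sets of 3 whole numbers whose scaled mean equals the deposited one were searched in full up to a mean of 300 and within 50% of the mean up to 6000 (within 20% above). For 2 control entries the window was widened to 95% of the mean. Within the ranges searched, a single set was found for 17380 of 17381 entries in both groups, and EEF1A1 was left unsettled. Recomputed size factors differed by at most 0.0041%. Entries of a name were summed, and limma 3.58.1 (R 4.3.3, trend, Benjamini-Hochberg) was fitted to log2(normalized count + 1) of the 14770 names with a mean of at least 1. Counts could not be used directly since none are in the deposited table. The recovery and the limma step were tested on simulated data.

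Calls are those of the authors' adjusted p under 0.05 over all 17381 entries, and limma's for members with several entries. Values per library are given for members with a mean of at least 100, or called with a log2 change of at least 1 and a mean of at least 10 in the higher group, and 2 genes per list with the largest changes; others are said to be chosen after their values were seen. Members, lists and tests were chosen with earlier results of these data known, so counts over them describe and support nothing. Promoters are from RefSeq (GRCh38.p14). Alternatives tried were the threshold, pseudocounts of 0.5 and 5, filters, trimmed mean scaling, voom, entries on main chromosomes alone and leaving out each library.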

Additional observations from a re-analysis of the deposited data

How the results depend on the processing

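The counts of called members stayed within 1.5 times their values under all alternatives run except a threshold of at least 2-fold, which left 12 higher and 6 lower. In limma the number higher ranged from 22 to 25 and the number lower from 18 to 21 with each library left out in turn. The median log2 change of the members, 0.09 with a mean of at least 1, was 0.026 with no filter beyond 1 read and ranged from 0.026 (without control library B) to 0.080 with a library left out, so it is not stable to 1 library. Single members were followed under alternatives for 53 of the 78, those given values per library by the rule above. The others, FOXI1, FOXS1, KLF17 and FOXD2 among them, were left out. Of the 689 values of these 53 members, 665 kept direction and call, 13 lost a call, 8 gained a call and 3 changed sign. Signs changed only in members not called. FOXO3B changed sign without control library A (0.034, range −0.12 to 0.034 with a library left out). FOXP1 changed sign without control library A (0.026) and without library B labelled knockout (0.039, range −0.061 to 0.039). The calls lost were those of SOX6, KLF6, FOXN2, FOXO4, FOXO6 and FOXP4. FOXO6 lost its call with the main-chromosome entry alone, whose change was smaller (−0.57 against −1.10). Calls were gained by KLF11, KLF12 and FOXJ3 without library A labelled knockout, and by FOXN3 without control library A and under a pseudocount of 5, a mean of at least 10, trimmed mean scaling and voom. The cause of these changes was not tested. No paired analysis was possible because the recovered libraries carry no replicate numbers that could be matched to those of the labels. Of the 20 members with a mean under 10, 2 were called; calls at another depth were not tested.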
